A study of Mus musculus with 6 samples.

Results

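The EGR family of transcription factors (*Egr1*, *Egr2*, *Egr3* and *Egr4*), their corepressors *Nab1* and *Nab2*, and *Srf*, a regulator of EGR genes, were followed in granulosa cells (GCs), the somatic cells that surround and nourish the oocyte. The members were chosen by gene name, and all 7 were found among the 54532 genes of the expression table. The study asked whether the apoptosis of GCs after cyclophosphamide (CTX), an alkylating chemotherapeutic, went with changes in gene expression. Every mouse was a 3-week-old female of the outbred ICR strain and was given PMSG (5 IU), a gonadotropin from the serum of pregnant mares that drives follicles to grow, and 22 h later an intraperitoneal injection of either phosphate-buffered saline (PBS) or 120 mg/kg CTX. GCs were collected 6 h after that injection, and RNA from 3 PBS and 3 CTX samples, each pooled from the ovaries of 3 mice, was sequenced. Both groups therefore carried the gonadotropin treatment, only 1 time point was sampled, and the spread between samples is a spread between pools.

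EGR proteins are zinc-finger transcription factors that bind GC-rich DNA, and their genes belong to the immediate-early genes, which are transcribed within minutes of a stimulus without new protein synthesis. SRF binds CArG boxes in front of these genes together with cofactors of the ternary complex factor class, which are activated by ERK, and in front of actin and cytoskeletal genes together with myocardin-related factors. NAB1 and NAB2 bind EGR1, EGR2 and EGR3 and repress the genes these factors activate, in part through the NuRD chromatin-remodelling complex, whereas EGR4 lacks the domain they bind. In the ovary, gonadotropins and growth factors of the EGF family are known to induce *Egr1* in GCs.

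After CTX treatment, *Egr1*, *Egr2* and *Egr4* were higher, whereas *Egr3*, *Nab1*, *Nab2* and *Srf* did not pass the threshold. A gene was called when its Benjamini-Hochberg adjusted p over the 14463 tested genes was below 0.05 and its change was more than 2-fold, in a limma fit on log2(FPKM + 0.1). FPKM count fragments per length of the gene and per total of mapped fragments, a level that corrects for gene length and depth, and all fold changes stand on the log2(FPKM + 0.1) scale, which understates the change of low genes. Thus 3 of the 7 members were called, all of them higher, against 0.802% of all tested genes called higher and 0.159% called lower. The members were chosen with earlier results of these data known, so comparisons of their number with all tested genes are only a description. In 6 of the 7 members the lowest CTX sample exceeded the highest PBS sample, which held for 15.0% of all tested genes, and *Egr3* was the exception. The exact two-sided permutation test of the mean FPKM accordingly gave 0.10, the smallest p that 3 against 3 samples allow, for these 6 members and 0.30 for *Egr3*.

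**Figure D1:**
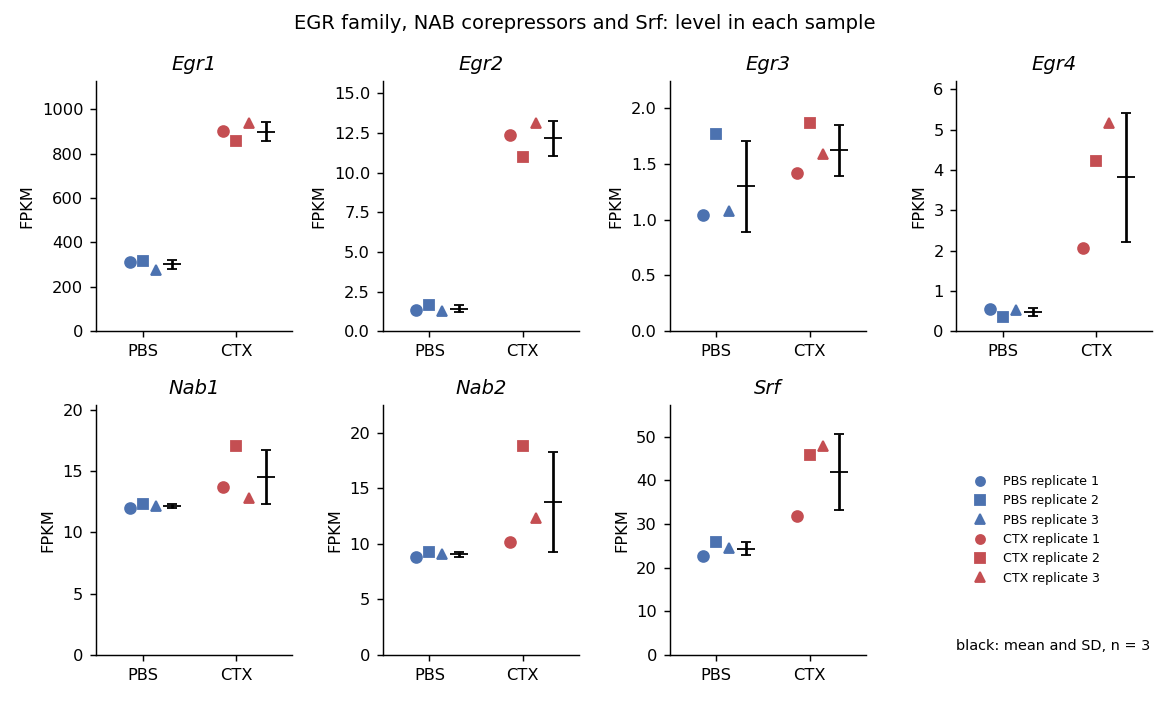
Level of each member in FPKM (linear axis from 0) in the 3 PBS and 3 CTX samples, with the mean and SD of each group in black and the replicate number as the symbol. *Egr1*, *Egr2* and *Egr4* rise well above the PBS samples, while *Egr3* overlaps and CTX replicate 2 is the highest for *Nab1* and *Nab2*.

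The samples held between 16005869 and 18455011 reads, rebuilt from FPKM and gene length. CTX replicate 2 stood apart from the other libraries, at 74.7 on a first principal component that took 46.8% of the variance, with the others between -26.6 and 13.2. All 10 granulosa markers were detected, led by *Inha*, an inhibin subunit, at 8556 to 10402 FPKM over the 6 samples. No granulosa marker was called, but 6 of the 10 had every CTX sample below every PBS sample, which held for 14.1% of all tested genes. The median log2 fold change of the 10 was -0.39, with only *Amh* above 0. *Foxl2* was at 184 to 193 FPKM in PBS and at 145, 76.9 and 107 FPKM in CTX replicates 1, 2 and 3. *Amh* was at 48.4 to 51.1 FPKM in PBS and at 54.3, 179 and 85.5 FPKM in CTX. *Cyp19a1*, the aromatase of estrogen synthesis, was at 59.2 to 62.4 FPKM in PBS and at 47.6, 6.61 and 32.5 FPKM in CTX replicates 1, 2 and 3. The 9 immune markers summed to 18.9 to 22.3 FPKM in PBS and to 32.8, 62.8 and 22.8 FPKM in CTX replicates 1, 2 and 3. Of these, *Ptprc*, the pan-leukocyte antigen, stayed between 0.0640 and 0.0983 FPKM and *Cd3e*, of T cells, between 0 and 0.0410 FPKM, whereas *Lyz2*, of macrophages and neutrophils, was at 13.1 to 14.3 FPKM in PBS and at 22.9, 45.8 and 14.7 FPKM in CTX, and *Cd68*, of macrophages, at 2.59 to 3.69 FPKM and at 4.26, 8.97 and 3.91 FPKM. None of the 4 immune markers tested was called, but all 4 had log2 fold changes above 0, with a median of 0.74. The 5 oocyte markers summed to 29.4 to 60.9 FPKM in PBS and 38.1 to 68.5 FPKM in CTX, with none called. The 7 theca and stromal markers summed to 50.6 to 54.0 FPKM in PBS and to 65.7, 27.0 and 46.3 FPKM in CTX. Of the 6 tested, 4 had log2 fold changes above 0, with a median of 0.43, and *Acta2* was called higher (1.08, adjusted p = 0.017, limma). *Cyp17a1*, the theca enzyme of androgen synthesis, went the other way, at 30.8 to 34.4 FPKM in PBS and at 29.6, 1.25 and 12.4 FPKM in CTX. The 5 endothelial markers summed to 4.54 to 5.45 FPKM in PBS and to 4.06, 1.79 and 4.16 FPKM in CTX, with *Cdh5*, the only one tested, lower in each CTX sample (log2 fold change -0.82, adjusted p = 0.256, limma). Fewer cells of a type and less RNA per cell cannot be told apart in such bulk samples, and the part of these markers in the results on the members was not tested.

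*Egr1* (ENSMUSG00000038418), the most studied member and an early responder to growth factors and stress, was at 310, 317 and 277 FPKM in PBS replicates 1 to 3 and at 902, 855 and 939 FPKM in CTX replicates 1 to 3. All CTX samples were above all PBS samples, with the lowest CTX sample 2.70 times the highest PBS sample. This gave a log2 fold change of 1.58 (SE 0.09, 95% interval 1.35 to 1.80; adjusted p = 1.2e-03, limma). The gene lies on chromosome 18, at 34859823 to 34864984 on the plus strand (mm10), and its longest coding transcript has 2 exons. Both groups were tight, with a coefficient of variation of 7.13% in PBS and 4.70% in CTX.

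*Egr1* was already abundant in the PBS samples. It ranked 108 among the tested genes by mean FPKM in PBS and 29 in CTX, and it took 0.126% to 0.147% of all rebuilt reads in the PBS samples and 0.381% to 0.426% in the CTX samples. It therefore set the level of the whole family. The summed EGR level was 304 ± 21.8 FPKM in PBS and 916 ± 43.5 FPKM in CTX (SD, n = 3 each), a gain of 612 FPKM of which *Egr1* made up 97.6%, *Egr2* 1.76%, *Egr4* 0.546% and *Egr3* 0.0530%. The share of *Egr1* in the summed level was nevertheless lower after CTX, at 97.9% to 98.3% compared with 98.8% to 99.1% in PBS, since the low members *Egr2* and *Egr4* changed by a larger factor.

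*Egr2* (Krox20, ENSMUSG00000037868), which is known for hindbrain patterning and myelination, had the highest fitted fold change of the 7 members. Its interval overlapped that of *Egr4*, which was the higher without CTX replicate 1 (3.07 and 3.00 on the log2 scale) and with sample weights (3.25 and 3.08). The estimation of these weights did not converge, and they were 0.304, 0.163 and 16.6 for CTX replicates 1, 2 and 3, so that fit rests mostly on CTX replicate 3. The level of *Egr2* was 1.34, 1.65 and 1.27 FPKM in PBS and 12.4, 11.0 and 13.1 FPKM in CTX. The groups were far apart, the lowest CTX sample being 6.64 times the highest PBS sample. In rebuilt reads, these levels were 81, 103 and 70 in PBS and 762, 662 and 800 in CTX. Its log2 fold change was 3.02 (SE 0.13, 95% interval 2.71 to 3.33; adjusted p = 7.9e-04, limma), and the gene moved from rank 11833 to rank 4583 among the tested genes. It spans 67535475 to 67542188 on the plus strand of chromosome 10 and has 7 annotated transcripts, whose separate levels are not given by a table of genes.

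*Egr4* (ENSMUSG00000071341), which is best known from neurons and germ cells, was the lowest of the family in PBS and the most variable in CTX. It was at 0.549, 0.355 and 0.517 FPKM in PBS, or 21, 14 and 18 rebuilt reads, and at 2.06, 4.22 and 5.17 FPKM in CTX, or 80, 161 and 199 reads. No samples overlapped between the groups, although CTX replicate 3 was 2.52 times CTX replicate 1. Its log2 fold change was 2.69 (SE 0.36, 95% interval 1.82 to 3.56; adjusted p = 0.022, limma). The variance between PBS samples was 0.843 times the variance expected from counting alone, whereas that between CTX samples was 25.7 times. The call was lost when any PBS sample or CTX replicate 3 was left out (adjusted p between 0.093 and 0.119, log2 fold change 2.43 to 2.79) and with limma voom on the rebuilt reads (adjusted p = 0.067). The gene, with 1 transcript of 2 exons, lies at 85511121 to 85513589 on the minus strand of chromosome 6.

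*Egr3* (ENSMUSG00000033730), which acts in muscle spindles and lymphocytes, was the member of its family that was not called. It was at 1.04, 1.77 and 1.08 FPKM in PBS and at 1.42, 1.87 and 1.58 FPKM in CTX, with 77 to 143 reads in PBS and 113 to 146 in CTX. PBS replicate 2 lay above 2 of the 3 CTX samples. The log2 fold change was 0.33 (SE 0.24; adjusted p = 0.460, limma), and its 95% interval of -0.25 to 0.91 ends below a 2-fold rise. The same interval does not show that the level was unchanged.

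Stretches in front of an annotated start are shown for the 2 called members and the regulator for which a promoter sequence was at hand. Immediate-early genes are known to respond through CArG boxes and CRE half-sites, bound by SRF and by CREB. Promoters of 5 of the 7 members were found in the RefSeq-based set (GRCm38.p6), and 250 bases before the annotated start were searched on both strands for a CArG box (2 C, then 6 A or T, then 2 G), the CRE half-site TGACG, the EGR site GCGNGGGCG and the ETS core CCGGAA. Capitals mark CArG boxes and CRE half-sites, the latter read as CGTCA where they lie on the other strand, and each sequence is written 5′ to 3′ on the strand of its gene.
*Egr2*, chr10:67537619-67537868, plus strand: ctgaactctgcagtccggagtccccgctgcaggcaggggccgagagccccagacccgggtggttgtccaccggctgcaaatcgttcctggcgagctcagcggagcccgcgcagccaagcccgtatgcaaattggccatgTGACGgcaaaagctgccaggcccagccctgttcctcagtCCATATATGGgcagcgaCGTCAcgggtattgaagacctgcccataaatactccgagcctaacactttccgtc
*Egr4*, chr6:85513590-85513839, minus strand: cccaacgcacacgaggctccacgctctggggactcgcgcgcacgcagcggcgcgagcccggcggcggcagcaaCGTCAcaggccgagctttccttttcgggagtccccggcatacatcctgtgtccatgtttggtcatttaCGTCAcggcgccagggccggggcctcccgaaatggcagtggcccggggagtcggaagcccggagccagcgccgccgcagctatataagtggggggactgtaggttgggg
*Srf*, chr17:46556163-46556412, minus strand: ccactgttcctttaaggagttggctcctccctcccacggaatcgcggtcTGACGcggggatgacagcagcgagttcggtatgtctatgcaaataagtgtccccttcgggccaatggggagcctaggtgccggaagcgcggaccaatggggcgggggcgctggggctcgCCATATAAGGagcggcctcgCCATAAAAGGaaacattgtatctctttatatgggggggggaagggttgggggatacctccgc

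The stretch printed for *Egr2* precedes an annotated start inside the span of the gene. It held 1 CArG box, beginning 72 bases before that start, and 2 CRE half-sites beginning 111 and 55 bases before it. *Egr2* has 5 such windows, of which 4 held a CArG box; 3 of these overlap and hold the same box, and the window at chr10:67537316-67537565 holds another together with 3 matches to the ETS core, 2 of which overlap. The remaining *Egr2* window, chr10:67535249-67535498, is the one at the outer start of the gene, and it held none of the motifs searched. The *Egr4* stretch held no CArG box and 2 CRE half-sites, 177 and 109 bases before the start. The *Srf* stretch held 2 CArG boxes, 82 and 62 bases before the start, with 1 CRE half-site, 1 EGR site and 1 ETS core. The windows of *Nab1* and *Nab2* held no CArG box. *Nab1* had 3 EGR sites and 1 CRE half-site, but 231 of its 250 bases lie in an annotated exon. *Nab2* had no match to any of these motifs. Its window, chr10:127666704-127666953, lies inside the span of the gene, and the stretch before the outer start of *Nab2* was not searched. Among all 32851 promoter windows, 1.47% held a CArG box and 0.0183% held 2 or more, 17.8% held a CRE half-site and 3.90% held 2 or more, 4.70% held an EGR site and 12.0% held an ETS core. These are matches of letters, and binding was not measured.

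*Srf* (ENSMUSG00000015605) was at 22.8, 25.9 and 24.5 FPKM in PBS and at 31.9, 45.9 and 47.8 FPKM in CTX. Every CTX sample exceeded every PBS sample, although CTX replicate 1 was 1.23 times the highest PBS sample. The log2 fold change was 0.76 (SE 0.16, 95% interval 0.37 to 1.15), and the adjusted p of 0.087 (limma) missed the threshold. Without CTX replicate 1 the log2 fold change was 0.94 with an adjusted p of 0.0074 (limma), which still was less than 2-fold. The gene lies on the minus strand of chromosome 17, at 46548329 to 46556175, inside the lincRNA *Gm26904* of the opposite strand, which was listed at 0 in 5 samples and at 0.0317 FPKM in CTX replicate 1. Whether the counting used strand is not given in the sources used here.

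The corepressors were expressed at a moderate level throughout and neither was called. *Nab1* (ENSMUSG00000002881; chromosome 1, 52457294 to 52500679, minus strand) was at 11.9, 12.3 and 12.1 FPKM in PBS and at 13.7, 17.0 and 12.8 FPKM in CTX. The groups did not overlap, but the gap between them was narrow and CTX replicate 2 stood above the rest. The log2 fold change was 0.25 (SE 0.11, 95% interval -0.03 to 0.52; adjusted p = 0.286, limma), and it was 0.13 without CTX replicate 2.

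*Nab2* (ENSMUSG00000025402), itself a known target gene of EGR factors in other cells, was at 8.78, 9.27 and 9.11 FPKM in PBS and at 10.2, 18.8 and 12.3 FPKM in CTX. All CTX samples were higher, CTX replicate 2 by far. The log2 fold change was 0.55 (SE 0.21, 95% interval 0.03 to 1.07; adjusted p = 0.236, limma), and leaving out CTX replicate 2 brought it to 0.30. *Nab2* (chromosome 10, 127660918 to 127668568, minus strand) has exonic bases inside the spans of genes on the plus strand. Of these, *Stat6* covers 40 exonic bases of *Nab2* and was at 12.3 to 13.6 FPKM in PBS and 11.6 to 13.6 FPKM in CTX. *Nemp1* covers 173 and was at 3.46, 4.002 and 3.29 FPKM in PBS and 3.499, 3.05 and 3.25 FPKM in CTX. The antisense gene *Gm16229* covers 1095 and did not exceed 0.0448 FPKM. Whether these bases also lie in exons of the neighbours was not examined.

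**Figure D2:**
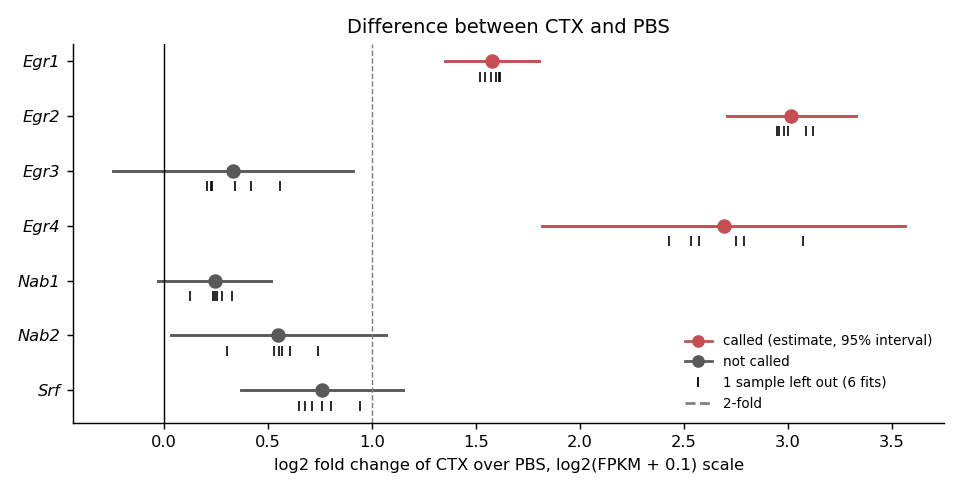
Log2 fold change of CTX over PBS for each member (circle) with its 95% interval (line) from the limma fit, and below it the 6 estimates with 1 sample left out (ticks). The intervals of *Egr1*, *Egr2* and *Egr4* lie wholly above the 2-fold line, and those of *Egr3* and *Nab1* include 0.

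The order of levels, which FPKM allows between genes because it corrects for length, was *Egr1*, *Srf*, *Nab1*, *Nab2*, *Egr2*, *Egr3* and *Egr4* in PBS. Neighbours in this order were separated in all 3 samples with the exception of *Egr2* and *Egr3*, whose ranges overlapped. In CTX the order of the means was *Egr1*, *Srf*, *Nab1*, *Nab2*, *Egr2*, *Egr4* and *Egr3*. There, *Nab1*, *Nab2* and *Egr2* overlapped, *Nab2* being above *Egr2* in CTX replicate 2 and below it in the other 2 CTX samples, and *Egr4* was above *Egr3* in each sample. Hence *Egr2*, which in PBS was well below both corepressors, overlapped their range after CTX treatment.

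Ratios within a sample do not depend on the scaling of that sample, and 8 of them were compared between the groups. The *Egr2* to *Egr3* ratio was 0.934 to 1.28 in PBS and 5.88 to 8.74 in CTX. The *Egr3* to *Egr4* ratio was 1.90 to 4.98 in PBS and 0.306 to 0.689 in CTX. Thus *Egr3* was above *Egr4* in each PBS sample and below it in each CTX sample. The *Egr1* to *Egr2* ratio was 192 to 232 in PBS and 71.5 to 77.9 in CTX, the *Egr1* to *Egr3* ratio was 179 to 297 and 458 to 637, and the *Egr1* to *Egr4* ratio was 535 to 892 and 182 to 439. The *Egr1* to *Srf* ratio was 11.3 to 13.6 in PBS and 18.6 to 28.3 in CTX. For these 6 ratios the groups did not overlap, and each reached the exact two-sided permutation p of 0.10, the smallest that 3 against 3 samples allow (adjusted p = 0.133 over the 8 ratios). The *Egr2* to *Egr4* ratio overlapped between the groups (2.44 to 4.65 and 2.54 to 6.02; exact permutation p = 0.5, adjusted p = 0.5), and so did the *Nab2* to *Nab1* ratio (0.735 to 0.754 and 0.743 to 1.10; exact permutation p = 0.3, adjusted p = 0.343). The summed EGR level was 13.2 to 15.1 times the summed NAB level in PBS and 24.4 to 38.5 times in CTX, which *Egr1* dominates.

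**Figure D3:**
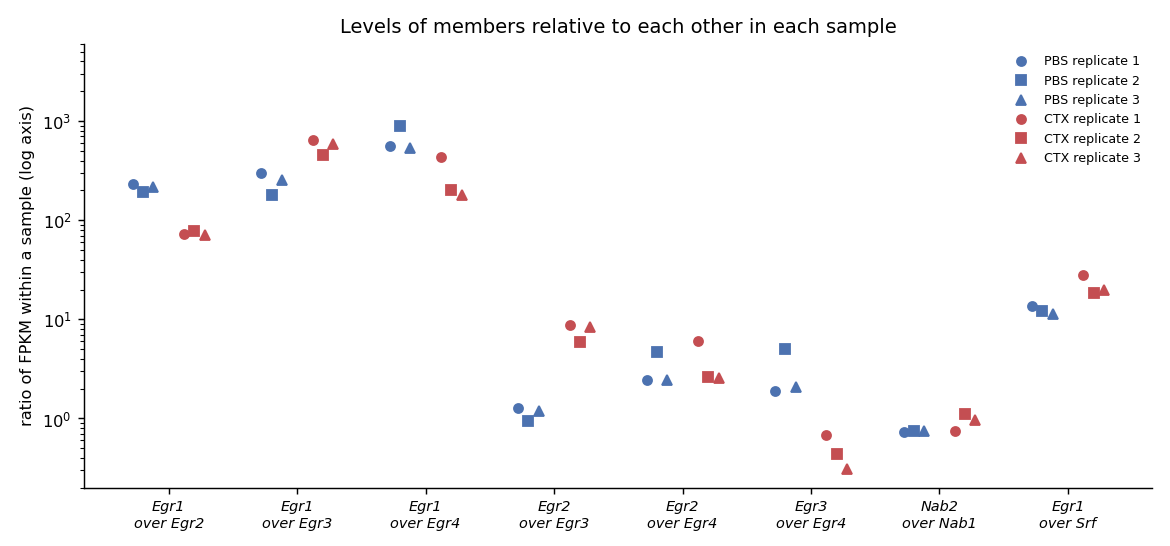
Ratio of the FPKM of 2 members within each sample (log axis), for the 3 PBS and 3 CTX samples. *Egr2* over *Egr3* is higher and *Egr3* over *Egr4* lower in CTX, *Egr2* over *Egr4* and *Nab2* over *Nab1* overlap between the groups, and the remaining ratios separate them.

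The 3 CTX pools did not rank alike for all members. CTX replicate 3 was the highest for *Egr1*, *Egr2*, *Egr4* and *Srf*, whereas CTX replicate 2 was the highest for *Egr3*, *Nab1* and *Nab2* and the lowest for *Egr1* and *Egr2*. Relative to the PBS mean, *Egr4* was at 4.34, 8.92 and 10.9 in CTX replicates 1, 2 and 3, and *Srf* at 1.31, 1.89 and 1.96, so that for both CTX replicate 1 was the lowest. *Egr1* was at 2.99, 2.84 and 3.12 and *Egr2* at 8.71, 7.73 and 9.25, with little spread. Without CTX replicate 2 the log2 fold changes of the called members were 1.61 for *Egr1*, 3.09 for *Egr2* and 2.57 for *Egr4*, each still called (adjusted p = 9.8e-04, 4.4e-04 and 0.029, limma).

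Upstream of the EGR genes, no transcript of the signalling chain was called, where only 0.802% of all tested genes were called higher and 0.159% lower. The 12 tested genes of the RAS to ERK cascade had a median log2 fold change of -0.02, beside -0.01 over all tested genes. *Mapk3*, which encodes a kinase at the end of this cascade, was at 47.2 to 50.6 FPKM in PBS and at 54.2 to 56.5 FPKM in CTX (log2 fold change 0.18, adjusted p = 0.19, limma). The 8 tested ligands and receptors had a median of -0.26. The receptor of luteinizing hormone, *Lhcgr*, was at 108 to 113 FPKM in PBS and at 129, 1.48 and 53.1 FPKM in CTX replicates 1, 2 and 3, and *Ereg*, an EGF-like ligand of the ovulatory response, was at 1.02 to 1.82 FPKM in PBS and at 1.46, 0 and 0.906 FPKM in CTX. *Hbegf*, another EGF receptor ligand, had all CTX samples above the PBS samples (2.09 to 2.34 and 2.95 to 4.13 FPKM, log2 fold change 0.58, adjusted p = 0.135, limma). *Btc*, also an EGF receptor ligand, had all CTX samples below the PBS samples (1.37 to 2.64 and 0.769 to 1.27 FPKM, log2 fold change -0.94, adjusted p = 0.175, limma). Over the 8 tested genes, 2 had all CTX samples above and 2 had all CTX samples below the PBS samples. Of all tested genes, 15.0% had all CTX samples above and 14.1% had all below. Transcript levels do not measure the activity of these kinases and receptors.

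None of the 6 SRF cofactors was called (median 0.03). The ternary complex factors *Elk1*, *Elk3* and *Elk4* had log2 fold changes of 0.04, 0.37 and 0.02, *Elk3* being at 8.45 to 9.06 FPKM in PBS and at 8.70, 16.2 and 10.6 FPKM in CTX. Those of *Mrtfa* and *Mrtfb*, the actin-sensing cofactors, were -0.14 and -0.15. *Myocd*, the myocardin of smooth muscle, was the exception in size, at 1.16 to 1.50 FPKM in PBS and at 3.74, 10.7 and 4.90 FPKM in CTX. Its log2 fold change of 2.07 missed the threshold (SE 0.37, adjusted p = 0.058, limma). It was called without CTX replicate 1, without CTX replicate 2 and with sample weights, in which CTX replicate 3 counts most.

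Other genes that SRF is known to drive were taken in the same 2 classes. Of the ternary complex factor class, 6 of 7 tested genes were called higher and none lower, with a median log2 fold change of 1.85. Over all tested genes 0.802% were called higher, but this list was chosen with earlier results of these data known. *Fos*, the partner of JUN in AP-1, was at 368 to 393 FPKM in PBS and 1247 to 1462 FPKM in CTX (log2 fold change 1.85, adjusted p = 1.0e-03, limma). *Nr4a1*, an orphan nuclear receptor, was at 34.4 to 43.3 FPKM in PBS and 166 to 241 FPKM in CTX (2.32, adjusted p = 1.9e-03, limma). *Zfp36*, which destabilizes AU-rich mRNAs, *Junb*, *Fosb* and *Ier2* rose by 2.02, 1.78, 1.86 and 1.07 on the log2 scale, although the calls of *Fosb* and *Ier2* were lost in 1 and 4 of 16 alternative fits. *Mcl1*, an anti-apoptotic BCL2 relative, had a log2 fold change of 0.59 (adjusted p = 0.017, limma), below the 2-fold threshold, and *Arc* was too low to be tested. Several genes of this class are immediate-early genes like the EGR genes and share their samples with them, so their values are not independent of the values of the members.

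Of the actin and myocardin-related class, 2 of 14 tested genes were called higher and none lower, with a median of 0.25. Over all tested genes 0.802% were called higher. In 8 of the 14 every CTX sample was above every PBS sample, and in 1 every CTX sample was below. Over all tested genes this held for 15.0% and 14.1%. This list, too, was chosen with earlier results of these data known. *Ccn1* (listed as *Cyr61*), a matricellular protein gene, was at 67.7 to 72.3 FPKM in PBS and at 187, 395 and 255 FPKM in CTX (log2 fold change 1.92, adjusted p = 0.022, limma). *Acta2*, smooth muscle actin and also a marker of theca and stromal cells, was at 7.66 to 8.60 FPKM in PBS and 14.7 to 20.5 FPKM in CTX (1.08, adjusted p = 0.017, limma). Its fold fell under 2 without CTX replicate 2, and both calls were lost when any PBS sample or CTX replicate 3 was left out. *Actb* and *Actg1*, the cytoplasmic actins, had log2 fold changes of 0.21 and 0.33 and were not called.

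Downstream, 18 genes that EGR factors are known to bind or regulate in other cells were examined, of which 15 could be tested. Only *Icam1*, a leukocyte adhesion molecule, was called among them, beside 0.802% of all tested genes called higher and 0.159% called lower. The median log2 fold change of the 15 was -0.00. *Icam1* was low, at 0.227 to 0.375 FPKM in PBS and 1.02 to 1.39 FPKM in CTX (1.82, SE 0.29, adjusted p = 0.038, limma), and its call was lost in 8 of 15 alternative fits. The coagulation initiator *F3*, *Tgfb1* and *Thbs1* had log2 fold changes of -0.07, 0.18 and 0.27. *Fasl* and *Igf2* were at or near 0 in every sample.

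The remaining lists concerned partners and competitors. Of the 13 NuRD subunits tested, none was called and the median was 0.07, with *Gatad2b* at the upper end (0.43) and *Hdac1* at the lower end (-0.34). Among zinc-finger factors that also bind GC-rich sites, *Sp1* and *Sp3* had log2 fold changes of 0.30 and 0.13, and *Wt1*, the Wilms tumour factor, was at 2.88 to 3.06 FPKM in PBS and at 3.39, 13.6 and 6.09 FPKM in CTX (1.11, adjusted p = 0.255, limma). None of these 3 was called. None of 6 heat-shock genes, examined because stress during handling raises them together with immediate-early genes, was called with all samples. In 4 of them every CTX sample was above every PBS sample, which held for 15.0% of all tested genes. The 6 genes summed to 323 to 339 FPKM in PBS and to 472 to 496 FPKM in CTX, with a median log2 fold change of 0.33. Of these, *Dnajb1* was at 32.2 to 33.9 FPKM in PBS and 49.5 to 84.2 FPKM in CTX (0.98, adjusted p = 0.063, limma). It was called without CTX replicate 2 (1.18, adjusted p = 0.0045, limma) and with sample weights, in which CTX replicate 3 counts most. *Hspa8* had a log2 fold change of 0.52 (adjusted p = 0.035, limma), and *Hspa1a* and *Hspa1b* had 0.10 and 0.26. The part of heat-shock genes in the EGR values was not tested.

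**Figure D4:**
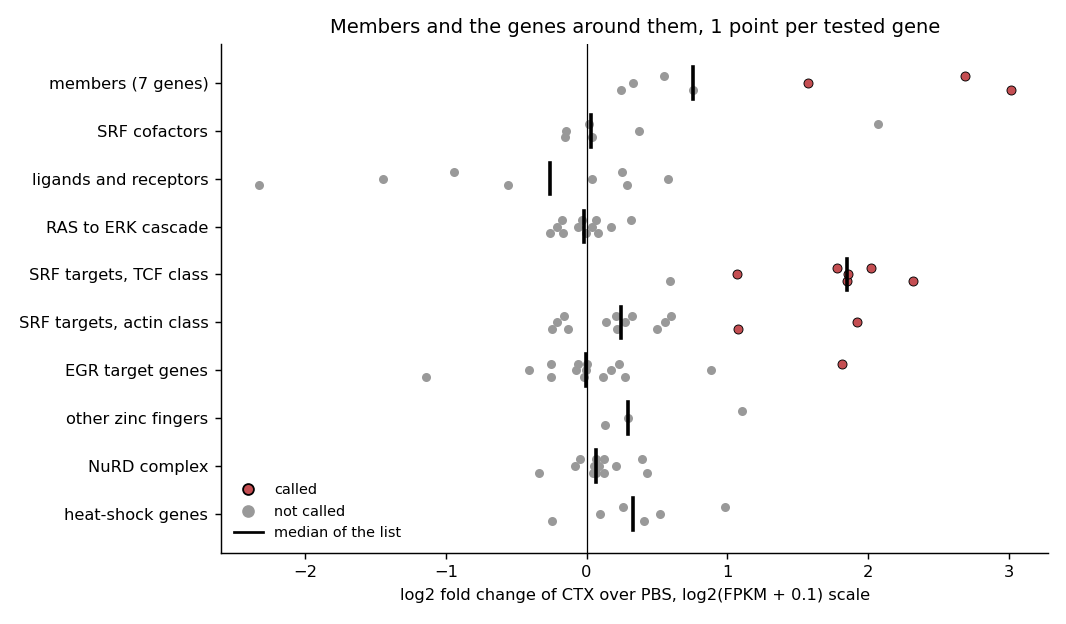
Log2 fold change of CTX over PBS of the 7 members and of each tested gene in the lists around them (1 point per gene, called genes in red, the list's median as a black bar). The ternary complex factor class of SRF targets, with 6 of 7 genes called, lies to the right, and the RAS to ERK and NuRD lists lie around 0.

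The genes whose levels followed those of the members most closely over the 6 samples were found by Pearson correlation of log2(FPKM + 0.1). For *Egr1* they were *Cxcl2*, *Mapk6* and *Zfp36* (r = 0.999 each), and for *Egr2* they were *Cxcl2* (0.998), *Zfp36* (0.998) and *Pmaip1* (0.997). *Cxcl2*, a neutrophil chemokine, was at 0.478 to 0.607 FPKM in PBS and 3.44 to 3.89 FPKM in CTX. *Pmaip1*, the BH3-only gene Noxa, was at 0.117 to 0.127 FPKM in PBS and 2.75 to 3.98 FPKM in CTX. For *Egr4* the nearest genes were *Vrk1* (0.998), *Gm4737* (0.998) and *Dek* (0.996), whose changes were much smaller than its own (log2 fold changes 0.18, 0.44 and 0.26). For *Srf* they were *mt-Rnr1* (0.997), *Sox13* (0.996) and *Kctd12* (0.994). These correlations are a description over 6 samples that share the split into PBS and CTX.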

How the data were processed

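GCs from 3 PBS and 3 CTX samples were profiled by RNA-seq. The authors deposited FPKM per gene. Per the labels, libraries were made with a NEBNext Ultra RNA kit, and the submitters' processing notes name CASAVA 1.8, fastp, HISAT2 2.0.5, featureCounts 1.5.0-p3, DESeq2 1.20.0 and mm10. The table's columns of the authors' own comparison (fold changes and p-values) were not used. Genes whose mean FPKM reached 0.5 (14463 of 54532) were tested on log2(FPKM + 0.1) with limma 3.58.1 (lmFit, eBayes with trend, R 4.3.3). The code of the fit was run on simulated reads without an outlying library, which does not bear on the calls made here. Reads were rebuilt as whole multiples (tolerance 0.1) of the FPKM of 1 read, and all values came out whole (100.0%). Gene models matched GENCODE M21 coordinates. Named genes were the members, the genes of the lists, and the 3 tested genes of highest correlation with each called member and *Srf*. Alternatives were 2 pseudocounts, 2 filters, 2 scalings, voom, no trend, sample weights, a replicate block and each sample left out. Members and lists were chosen with earlier results of these data known.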

Additional observations from a re-analysis of the deposited data

How the results depend on the processing

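Over 10 alternative settings and 6 fits with 1 sample left out, the direction of each member held. Of the 124 genes of the rule for named genes, 26 changed sign in at least 1 fit, none of them called in any fit. Those named in the text were *Elk4* (-0.0099 with library totals, -0.015 with voom, -0.066 to 0.106 with 1 sample left out), *Hspa1a* (-0.236 with sample weights, -0.038 to 0.260 with 1 sample left out), *Tgfb1* (-0.228) and *F3* (0.080), the last 2 with sample weights. Without CTX replicate 2 the median log2 fold changes of the RAS to ERK and EGR target lists were 0.01 and 0.07, both above 0. *Egr1* and *Egr2* were called in all 16, with log2 fold changes of 1.40 to 1.62 and 2.44 to 3.12. *Egr4* ranged from 1.65 to 3.25 and lost its call with voom on rebuilt reads, with the replicate block (adjusted p = 0.117, limma) and in 4 of the 6 fits with 1 sample left out. The 139 genes called, 116 of them higher, became 657 and 366 with limma sample weights, whose estimation did not converge, and 50 and 48 with the replicate block, under which *Fosb*, *Ier2*, *Ccn1*, *Acta2* and *Icam1* also lost their calls. Leaving out 1 sample gave 58 to 205 genes called and 57 to 142 called higher. The total was below 139 by more than 1.5 times without PBS replicate 1 (67), PBS replicate 2 (66), PBS replicate 3 (58) or CTX replicate 3 (84). The cause of these shifts was not tested. Samples with the same replicate number did not deviate together (correlations 0.056, 0.024 and 0.006), so the numbers were not read as pairs. With 14 to 21 reads per PBS sample, the level of *Egr4* in PBS rests on the fewest reads of the 7.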
